A study of Mus musculus with 12 samples.

Results

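The subunit genes of the interleukin-12 (IL-12) family were followed in RAW264.7, a macrophage-like cell line from mouse. The genes Il12b, Il23a, Il27 and Ebi3 were found by symbol, and these 4 rows were taken from the 25192 genes of the table. Poly(A) RNA of 12 libraries was sequenced, 4 per group. The first group is labelled only as control, LPS cells received lipopolysaccharide (LPS, a component of the bacterial outer membrane) at 1 µg/mL for 24 h, and ferulic acid plus LPS cells received the plant phenolic acid at 10 µM for 12 h before the same LPS treatment. The labels write only FA for the pretreatment, and the series title names ferulic acid. All groups are the same line, and the labels name no allele or transgene. The labels also leave unsaid whether replicates were grown as separate cultures. The p-values therefore describe the spread among the libraries sequenced, and that spread may be technical.

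Cytokines of the IL-12 family are secreted as pairs of a helical chain and a chain that resembles a soluble receptor. The helical chains are p35 (Il12a), p19 (Il23a) and p28 (Il27), and the receptor-like chains are p40 (Il12b) and EBI3 (Ebi3). IL-12 joins p35 with p40, IL-23 joins p19 with p40, IL-27 joins p28 with EBI3, and IL-35 joins p35 with EBI3. Macrophages and dendritic cells make IL-12, IL-23 and IL-27 when their Toll-like receptors are engaged, and the cytokines act mainly on T and NK cells, IL-12 towards type 1 responses, IL-23 towards IL-17-producing cells and IL-27 both to support and to restrain T cell responses.

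Pentamers of the sequence ATTTA after the stop codon belong to the AU-rich elements through which proteins such as tristetraprolin (Zfp36) shorten the life of cytokine mRNAs, so the 30-base stretch with the most of them is shown for each member, with the pentamers in capitals. Sequences and positions are those of the GENCODE M21 transcripts (GRCm38).
Il12b, chr11:44413473-44413502, plus strand: ATTTAagtaATTTAtgtATTTAttaATTTA
Il23a, chr10:128296179-128296208, minus strand: tgatggttATTTAttctATTTAtaaggaat
Il27, chr7:126589085-126589114, minus strand: tATTTAtttcttggatATTTATTTAttttt
Ebi3, chr17:55956971-55957000, plus strand: tgtgaactttgtgATTTAattagaaagacg
The whole stretch after the stop codon held 6 pentamers in Il12b (797 bases), 6 in Il23a (657 bases), 5 in Il27 (285 bases) and 1 in Ebi3 (245 bases). Among 21823 protein-coding genes, 14% had at least 6, 17.9% at least 5 and 58.4% at least 1. In raw count Ebi3 thus lay at the median of all genes, which was 1 pentamer, and the other members above it. The median stretch of all genes was 732 bases, longer than that of Ebi3, Il27 or Il23a, and the counts were not adjusted for length. These are matches of letters, not measured sites.

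The window from 250 bases before to 50 bases from the annotated start is shown for the members in the RefSeq promoter table (GRCm38.p6), Il12b and Ebi3, because both genes were higher with LPS. Capitals mark the pattern of GGG, any 5 bases and CC, a loose form of an NF-kB site, read on both strands.
Il12b, chr11:44399813-44400112, plus strand: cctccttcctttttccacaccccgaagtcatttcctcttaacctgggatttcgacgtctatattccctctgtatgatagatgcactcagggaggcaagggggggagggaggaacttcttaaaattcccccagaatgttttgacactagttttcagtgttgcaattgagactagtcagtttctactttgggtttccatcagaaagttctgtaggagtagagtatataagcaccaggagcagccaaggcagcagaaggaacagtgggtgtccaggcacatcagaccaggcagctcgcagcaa
Ebi3, chr17:55952373-55952672, plus strand: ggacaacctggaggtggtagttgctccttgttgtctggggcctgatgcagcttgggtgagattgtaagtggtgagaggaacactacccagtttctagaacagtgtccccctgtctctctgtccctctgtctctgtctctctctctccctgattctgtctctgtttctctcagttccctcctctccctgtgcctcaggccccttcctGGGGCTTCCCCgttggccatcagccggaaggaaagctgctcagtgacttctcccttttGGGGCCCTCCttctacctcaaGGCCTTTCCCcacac
Ebi3 held 4 matches. GGGGCTTCCC (-44 to -35 from the start) and GGGCTTCCCC (-43 to -34) overlap, and the others were GGGGCCCTCC (14 to 23) and GGCCTTTCCC (35 to 44). Of 32851 windows of this length, 50.8% held the pattern. Il12b held none in this window. Other patterns were searched on both strands too, GAAA with any 2 bases before another GAAA (an IRF site, in 3.44% of windows), TGANTCA (AP-1, 7.81%) and TTNNGNAA (C/EBP, 40.7%), and neither gene's window held a match to any of them. No match says only that these letters are not in this window.

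The line was checked against its markers. Of 9 macrophage markers, 8 had reads in control, with Mertk at 0, and their summed level was 4356 to 4863 CPM (counts scaled to the TMM-adjusted size of the library) in control, against 3148 to 3446 CPM after LPS and 2885 to 3377 CPM after the pretreatment with LPS. The markers did not move as one, with mean levels in control and LPS libraries of 2412 and 395 CPM for Lyz2 and 1040 and 129 CPM for Csf1r, but 292 and 1049 CPM for Cd14, 510 and 1001 CPM for Cd68, 88.1 and 179 CPM for Itgam and 38.0 and 337 CPM for Adgre1. Of 7 dendritic cell markers, summed 2.26 to 5.69 CPM over all libraries, Clec9a and Siglech were at 0 in all LPS-treated libraries and Cd209a was not analysed here, while mean levels in control and LPS libraries were 1.14 and 2.06 CPM for Zbtb46, 0.0172 and 0.635 CPM for Ccr7 and 0.00430 and 0.162 CPM for Flt3. Summed B cell markers were 0.298 to 0.697 CPM in control and 1.18 to 2.87 CPM in LPS-treated libraries, from Cd79a, Cd79b and Ms4a1. T and NK markers summed to 0.907 CPM or less in each library, and fibroblast and epithelial markers to 0.264 CPM or less. The part of these marker levels in the values of the members was not tested. Total counts ran from 32548423 to 49961581 per library. Between 64.2% and 68.6% of the counts from 1 to 20 in a library were even numbers, so intervals that take each read as independent may be too narrow for low genes. Ferulic acid plus LPS libraries 1 and 4 stood apart from libraries 2 and 3, with scores of -44.0 and -76.6 on the second principal component against 25.6 and 7.56, and 12.5 to 41.3 in LPS libraries.

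All 4 members were higher after LPS than in control, and the libraries of the 2 groups did not overlap for any of them. Il12b passed the filter on low counts only through its LPS-treated libraries, and a gene that passes in this way has to differ. In bulk RNA, more cells making a transcript and more transcript per cell cannot be told apart. Across all 14065 genes tested, 73.8% were called, 35.6% higher, and 75.3% had no overlap. A gene was called at an adjusted p under 0.05 in edgeR's quasi-likelihood test with Benjamini-Hochberg adjustment over the genes tested, and each adjusted p given here comes from it. All genes had a median log2 fold change of -0.10 under TMM scaling and -0.99 under library size scaling, and the rise of each member kept its call with both. The size depends on the scaling, since with library size scaling the log2 fold change was 5.06 for Il23a, 8.22 for Il27 and 2.54 for Ebi3, lower than the TMM values given below.

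Il12b (ENSMUSG00000004296) encodes p40, the chain shared by IL-12 and IL-23. No read was counted in any of the 4 control libraries, against 23, 34, 39 and 34 reads in LPS libraries 1 to 4. On the CPM scale these were 0.834, 1.18, 0.966 and 0.932, a mean of 0.979 ± 0.147 (SD, n = 4). Every LPS library had reads and no control library did, yet the level after LPS stayed near 1 CPM. Measured against the limit that a count of 0 allows (3 counts over the control group, 0.0126 CPM, covering counting error only), p40 mRNA was at least 77.3-fold higher after LPS. The adjusted p of 1.8e-06 from edgeR belongs to the fitted change and not to this bound. Since Il12b passed the filter only through LPS-treated libraries, that call says little. Whether both mates of a read pair were counted is not given, and with each fragment taken as 2 reads the limit would be 6 counts and the bound 38.7-fold. With unadjusted library totals in place of TMM scaling the bound was 41.7-fold.

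Il23a (ENSMUSG00000025383) encodes p19, the chain particular to IL-23. Control libraries 1 to 4 had 0.241, 0.354, 0.551 and 0.264 CPM, from 14 to 40 reads each. LPS libraries 1 to 4 had 23.8, 19.0, 24.6 and 22.0 CPM. The groups lay far apart. On the log2 scale p19 mRNA rose by 5.95 (SE 0.25, adjusted p = 3.6e-12), or 61.6-fold (95% interval 42.6 to 89.2).

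Il27 (ENSMUSG00000044701) encodes p28, the chain that defines IL-27. It was at 0.877, 1.23, 0.785 and 1.36 CPM in control libraries 1 to 4. In LPS libraries 1 to 4 it was at 726, 584, 546 and 506 CPM. This was the steepest fitted rise among the members with control reads, at 9.13 on the log2 scale (SE 0.26, adjusted p = 2.9e-14). It came to 559-fold (95% interval 381 to 820), and 49 of the 14065 genes tested had a larger fitted rise. Il12b, with no control read, has only a lower bound, and its fitted 8.36 had a 95% interval of 6.37 to 10.3. Il27 and Il12b were thus not ranked against each other. Apobr, a lipoprotein receptor gene that overlaps Il27 on the opposite strand, averaged 65.2 CPM in control and 71.2 CPM in LPS libraries.

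Ebi3 (ENSMUSG00000003206) encodes the receptor-like partner of p28. It was already present without LPS, at 9.08, 9.33, 11.5 and 8.21 CPM in control libraries 1 to 4. LPS libraries 1 to 4 had 130, 93.5, 96.9 and 94.8 CPM, all above every control library and with library 1 above the rest. The log2 fold change was 3.44 (SE 0.17, adjusted p = 3.1e-11), or 10.9-fold (95% interval 8.44 to 14.0), the smallest rise of the members. The antisense gene Gm16712 overlaps Ebi3 and was at 0.995 ± 0.186 CPM in control and 9.79 ± 0.790 CPM in LPS libraries. Since the strand setting of the counting is not given, reads of such overlapping pairs cannot be told apart.

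**Figure D1:**
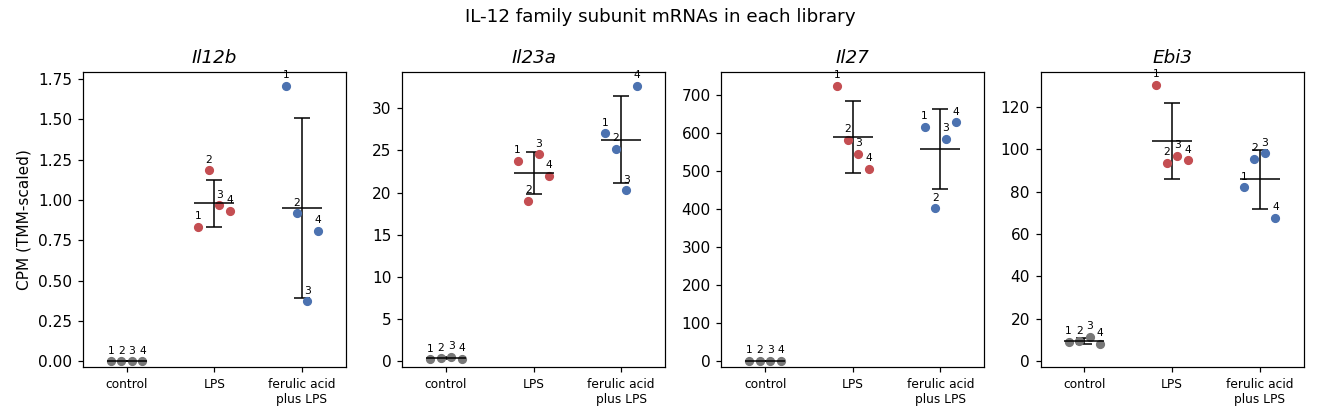
CPM of each IL-12 family subunit gene (linear axes that differ between panels) in every library, grouped by treatment, with points numbered by replicate and bars for the mean and SD. Control libraries lie at 0 for Il12b and below every LPS-treated library for the other genes, while the 2 LPS-treated groups overlap in each panel.

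Set side by side per length, the members spanned several orders of magnitude. FPKM (fragments scaled to gene length and library total, as deposited, with no TMM scaling) averaged 469 ± 52.8 for Il27, 73.0 ± 9.28 for Ebi3, 8.11 ± 1.05 for Il23a and 0.406 ± 0.0651 for Il12b in LPS libraries (SD, n = 4). No neighbouring pair in this order overlapped. By mean FPKM in LPS libraries Il27 ranked 169 among the 25192 genes of the table, Ebi3 718, Il23a 3667 and Il12b 10910. In control libraries the order was another, with Ebi3 at 12.5 ± 1.72, Il27 at 1.58 ± 0.419, Il23a at 0.237 ± 0.0919 and Il12b listed at 0. Ebi3 led there and Il27 led after LPS.

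Il27 and Ebi3 encode the partners of IL-27, and their order turned with LPS. The FPKM of Il27 divided by that of Ebi3 was 0.109, 0.149, 0.0768 and 0.187 in control libraries 1 to 4. In LPS libraries 1 to 4 it was 6.29, 7.06, 6.37 and 6.04. Ebi3 was thus the more abundant of the pair in every control library and Il27 in every LPS library. These values were compared after they had been seen and carry no test. A gene's level does not say which chains were paired or secreted.

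Il12b and Il23a encode the partners of IL-23, and the shared chain was the scarcer mRNA. Il12b reached 4.01%, 7.11%, 4.50% and 4.84% of the FPKM of Il23a in LPS libraries 1 to 4. In ferulic acid plus LPS libraries 1 to 4 it reached 7.23%, 4.16%, 2.09% and 2.82%. Each percentage in this set rests on 15 to 42 reads of Il12b. Among the other chains that can pair with members, Il12a was not analysed here. Cd5l, whose product can pair with p40, had at most 10 reads in a library and was not tested.

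**Figure D2:**
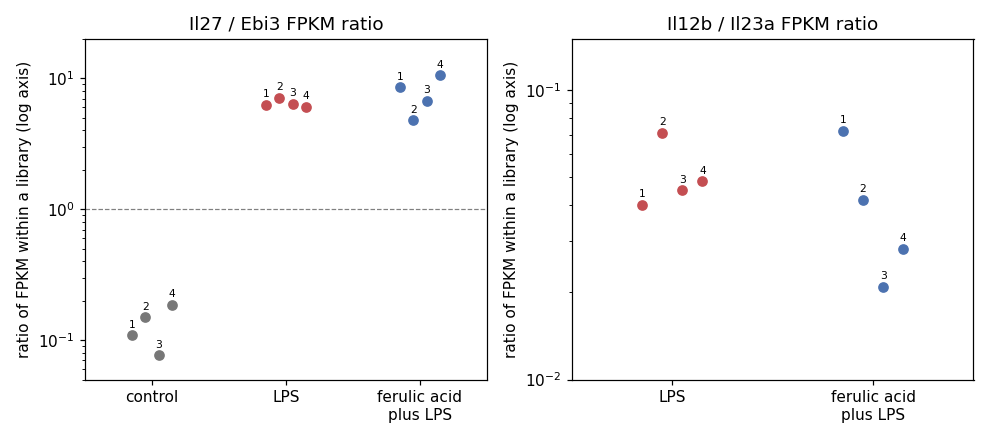
FPKM ratio of Il27 to Ebi3 and of Il12b to Il23a within each library (log axes), with points numbered by replicate and a dashed line at equal levels. The Il27 to Ebi3 ratio lies below 1 in the control libraries and above 1 in all LPS-treated ones, and the Il12b to Il23a ratio lies between 2.09% and 7.23% in LPS-treated libraries.

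Whether ferulic acid changed the members in cells given LPS was read from the groups with and without the pretreatment. None of the 4 was called, and the libraries of the 2 groups overlapped for each. Over all genes tested, 0.284% were called, 7.02% had no overlap and 23.0% had an unadjusted p under 0.05. No member reached that unadjusted p in edgeR. Limma on FPKM called none either, nor did DESeq2, which gave no adjusted p for Il12b.

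Il12b had 1.71, 0.918, 0.371 and 0.808 CPM in ferulic acid plus LPS libraries 1 to 4. Library 1 was above and libraries 3 and 4 below all LPS libraries (0.834 to 1.18 CPM). The log2 fold change was -0.06 (SE 0.52, adjusted p = 0.968), and its 95% interval ran from 0.442-fold to 2.09-fold. The spread was wider with the pretreatment (0.952 ± 0.558 CPM, SD, n = 4) than with LPS alone (0.979 ± 0.147 CPM). The direction turned without LPS library 2 (0.05) or without ferulic acid plus LPS library 3 (0.22) or 4 (0.01). Without the pretreated libraries 1 and 4 the value was -0.60 and without libraries 2 and 3 it was 0.34, and neither was called.

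Il23a had 27.0, 25.2, 20.3 and 32.7 CPM in ferulic acid plus LPS libraries 1 to 4. Libraries 1, 2 and 4 lay above the highest LPS library (24.6 CPM) and library 3 within the LPS range. The log2 fold change was 0.23 (SE 0.19, 95% interval -0.17 to 0.64, adjusted p = 0.474). Without libraries 1 and 4 it was 0.03 and without libraries 2 and 3 it was 0.41 (adjusted p = 0.0923).

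Il27 had 618, 403, 586 and 629 CPM in ferulic acid plus LPS libraries 1 to 4. Library 2 was below every LPS library (506 to 726 CPM) and the others lay among them. The log2 fold change was -0.08 (SE 0.18, 95% interval -0.46 to 0.30, adjusted p = 0.823). It turned without LPS library 1 (0.03), without ferulic acid plus LPS library 2 (0.04) and without libraries 2 and 3 of that group (0.07), and was called in none of these.

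Ebi3 had 82.1, 95.5, 98.0 and 67.6 CPM in ferulic acid plus LPS libraries 1 to 4. Libraries 1 and 4 were below all LPS libraries (93.5 to 130 CPM) and libraries 2 and 3 within their range. The log2 fold change was -0.28 (SE 0.16, 95% interval -0.61 to 0.06, adjusted p = 0.298). Leaving out libraries 2 and 3 of the pretreated group gave -0.48 (adjusted p = 0.0200), in a fit that called 37.7% of all genes tested. Leaving out libraries 1 and 4 gave -0.10 (adjusted p = 0.864), and without LPS library 1, the highest, -0.15 (adjusted p = 0.616). Ribosomal protein genes took 21.0% and 21.1% of the reads in ferulic acid plus LPS libraries 1 and 4, 13.2% and 16.7% in libraries 2 and 3, and 14.2% to 16.3% in LPS libraries, and the part of that difference in the Ebi3 value was not tested.

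**Figure D3:**
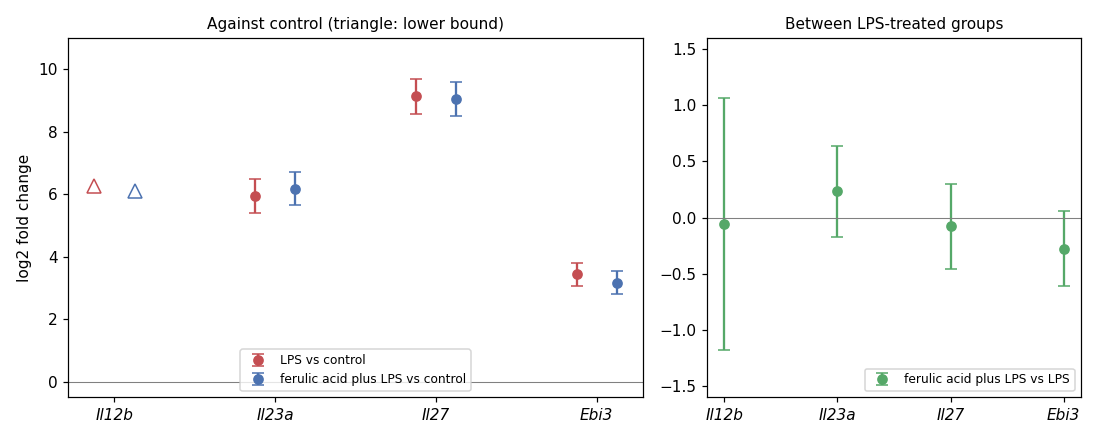
Log2 fold change with its 95% interval (bars) of each subunit gene against control (left) and between ferulic acid plus LPS and LPS (right), from the edgeR fit, with open triangles for the lower bound of Il12b, which had no control read. Values against control lie between 3.17 and 9.13 apart from the bounds, and the intervals on the right all include 0.

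Ratios between members within a library do not depend on library scaling, and 3 of them were compared between the LPS-treated groups with a two-sided exact permutation test (4 libraries against 4, smallest possible p = 0.0286). The Il27 to Ebi3 ratio was 8.50, 4.77, 6.76 and 10.5 in ferulic acid plus LPS libraries 1 to 4, and the spread was wider than the 6.04 to 7.06 of the LPS libraries. The mean log2 ratio was 0.19 higher (exact p = 0.457, 0.686 adjusted over the 3 ratios). The Il12b to Il23a ratio differed by -0.45 on the log2 scale (exact p = 0.343, adjusted 0.686). The Il12b to Il27 ratio differed by -0.14 (exact p = 0.800, adjusted 0.800), and by 0.27 in the other direction without ferulic acid plus LPS library 3. The differences were within the spread between libraries for all 3 ratios.

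The pretreated group was also compared with control, using libraries that the comparisons above share. All 4 members rose, where 73.3% of all genes tested were called and 35.8% were called higher. Il12b was at least 69.2-fold higher against the same limit of 3 counts over the control group, and the bound would be 34.6-fold with each fragment taken as 2 reads. Its adjusted p of 1.9e-06 from edgeR belongs to the fitted change and not to this bound. That call says little here too, given how Il12b passed the filter. The log2 fold change was 6.18 (SE 0.25, adjusted p = 2.6e-12) for Il23a, 9.05 (SE 0.26, adjusted p = 3.7e-14) for Il27 and 3.17 (SE 0.17, adjusted p = 8.4e-11) for Ebi3.

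**Figure D4:**
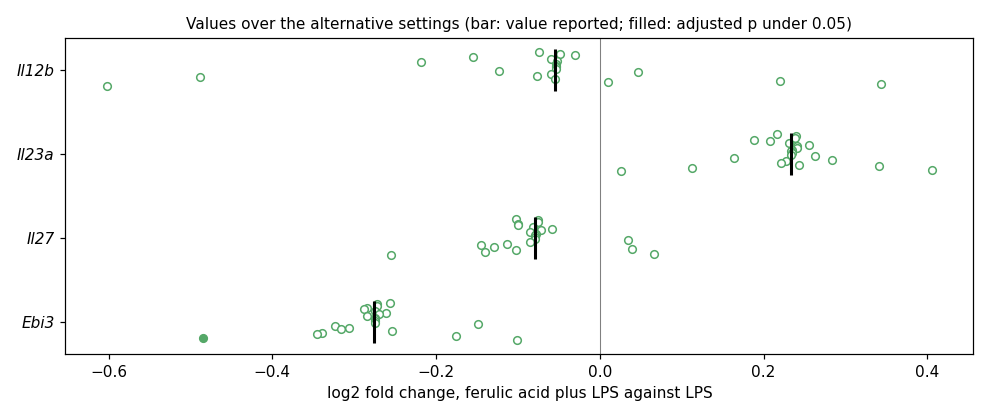
Log2 fold change of each subunit gene between ferulic acid plus LPS and LPS over the alternative settings (points), with a black bar for the value reported and filled points where the adjusted p was under 0.05. Il23a stays above 0 and Ebi3 below 0 in every setting shown, Il12b and Il27 fall on both sides, and the single filled point is Ebi3 without ferulic acid plus LPS libraries 2 and 3.

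The receptors of the family were measured in the same cells. Of 5 receptor genes, 4 were in the table, 3 were tested, 2 rose and 1 fell with LPS. Among all genes tested, 73.8% were called in this comparison, so calls in all 3 set the receptors little apart. Il12rb1, the chain shared by the IL-12 and IL-23 receptors, rose from 4.90 ± 0.456 to 14.8 ± 3.57 CPM (a log2 difference of 1.59, SE 0.20, adjusted p = 2.7e-06). Il27ra, the specific chain of the IL-27 receptor, rose from 0.206 ± 0.120 to 1.58 ± 0.346 CPM (2.90, SE 0.60, adjusted p = 3.5e-04), a low level with at most 68 reads in a library of either group. Control libraries 1 to 4 had 8, 8, 28 and 8 reads of it. It could thus pass the filter on low counts only through LPS-treated libraries, and its call says little. Ferulic acid plus LPS library 4 had 5 reads of Il27ra, against 61 to 69 in the other libraries of that group. Il6st, which encodes gp130, the signalling chain that IL-27 shares with IL-6, fell from 99.8 ± 12.6 to 24.1 ± 5.42 CPM (-2.05, SE 0.24, adjusted p = 1.0e-06). With library size scaling the log2 values were 0.68 for Il12rb1, 2.01 for Il27ra and -2.94 for Il6st, and each kept its direction and call. In level the 2 chains of the IL-27 receptor thus moved in opposite directions, with the call of Il27ra limited as above. Il12rb2 had at most 11 reads in a library and was not tested, and Il23r was not analysed here.

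Of 5 receptor kinases and STAT factors reported here, 4 were tested, where 73.8% of all genes tested were called with LPS. None of the 4 was called lower. Jak1, Tyk2 and Stat3 did not pass, and Jak2 was called higher with TMM scaling but lay below 0 with library size scaling. Jak2, a kinase bound to these receptors, was at 0.61 on the log2 scale (SE 0.18, adjusted p = 0.00572) with TMM and -0.29 with library size scaling. Stat4, through which IL-12 signals, had at most 2 reads in a library and none in control.

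Of 9 genes known to activate transcription of the subunits, 6 were called higher with LPS, none lower and 3 did not pass, where 35.6% of all genes tested were called higher. Of the 6, Nfkb1 lost its call with library size scaling and Spi1 lay below 0 there. The list median was 1.07 against -0.10 for all genes. Nfkbiz, an NF-kB cofactor that Il12b needs in macrophages, rose from 6.69 ± 0.625 to 146 ± 15.3 CPM (4.45 on the log2 scale, SE 0.18, adjusted p = 2.2e-12). Cebpb (2.73, SE 0.21, adjusted p = 7.5e-09), Irf8 (2.11, SE 0.14, adjusted p = 7.1e-10) and Irf5 (1.23, SE 0.12, adjusted p = 9.9e-08), all transcription factors, rose as well. With library size scaling these values were smaller, at 3.55 for Nfkbiz, 1.82 for Cebpb, 1.20 for Irf8 and 0.33 for Irf5 (adjusted p = 0.0389). Nfkb1 had 1.07 (adjusted p = 2.0e-04) with TMM and 0.18 (adjusted p = 0.551) with library size scaling, and Spi1, the macrophage factor PU.1, had 0.53 (adjusted p = 0.00161) and -0.37 (adjusted p = 0.0289). The 3 that did not pass were the NF-kB subunits Rel (0.02, adjusted p = 0.934) and Rela (0.11, adjusted p = 0.514) and the interferon regulatory factor Irf1 (-0.17, adjusted p = 0.353).

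Of 6 genes known to restrain the subunits, 5 were tested and all 5 were called higher with LPS, where 35.6% of all genes tested were called higher. Il10 is among the 5 and had to differ, as set out below, so only the others can be set against that share. The list median, with Il10 included, was 3.72 against -0.10 for all genes. Atf3, a repressor that binds cytokine genes, rose from 30.5 to 34.9 CPM in control libraries to 695 to 860 CPM in LPS libraries (4.53 on the log2 scale, SE 0.17, adjusted p = 5.4e-13). Zfp36, which encodes tristetraprolin, rose by 3.72 (SE 0.15, adjusted p = 2.3e-12), Zc3h12a, which encodes the RNase Regnase-1, by 3.64 (SE 0.15, adjusted p = 2.6e-12) and the repressor Nfil3 by 2.71 (SE 0.18, adjusted p = 1.0e-09). With library size scaling the log2 values were smaller, at 3.64 for Atf3, 2.82 for Zfp36, 2.74 for Zc3h12a and 1.81 for Nfil3, and each kept its call. Il10, a cytokine that restrains macrophages, was called too, with 2 reads over the control group and 32 to 65 reads in each LPS library. Like Il12b it could pass the filter on low counts only through LPS-treated libraries, so its call says little. Maf had at most 2 reads in a library and was not tested.

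With ferulic acid before LPS, no gene of these lists was called against LPS alone. Among the 5 restraining genes tested, 3 had an unadjusted p under 0.05 (23.0% of all genes tested) and no overlap between the groups (7.02% of all genes tested). Atf3 was at 412, 556, 553 and 391 CPM in ferulic acid plus LPS libraries 1 to 4 and at 695 to 860 CPM in LPS libraries (log2 fold change -0.68, SE 0.14, adjusted p = 0.0582). Zc3h12a was at 55.9 to 78.2 CPM against 85.7 to 106 CPM (-0.53, SE 0.14, adjusted p = 0.0847), and Zfp36 at 238 to 291 against 299 to 418 CPM (-0.42, SE 0.14, adjusted p = 0.110). All 3 were lower in pretreated libraries 1 and 4, which stood apart, than in libraries 2 and 3. These values were picked out after they had been seen. In the kinase and STAT list 1 of 4 and among the activators 3 of 9 had an unadjusted p under 0.05, shares near that of all genes tested, and among the receptors none of 3 did.

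**Figure D5:**
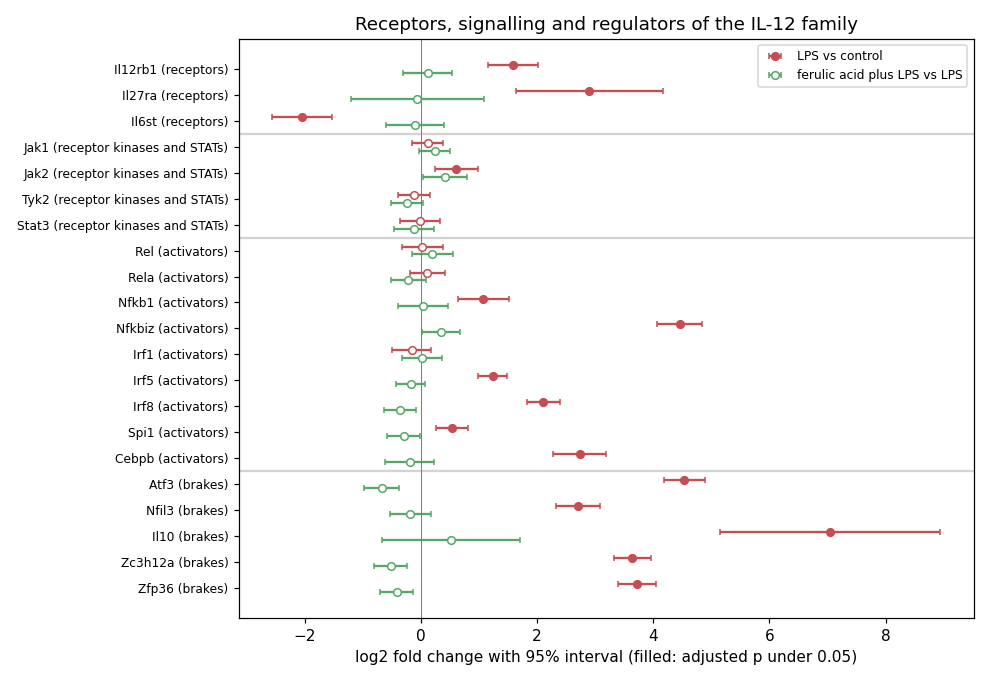
Log2 fold change with its 95% interval of the tested receptor, signalling, activating and restraining genes, for LPS against control (red) and ferulic acid plus LPS against LPS (green), with filled points for an adjusted p under 0.05. All 5 restraining genes, among them Il10, whose call says little, and 6 of 9 activating genes are filled and above 0 in red. Of the activating genes, Spi1 and Nfkb1 were not called higher with library size scaling. No green point is filled.

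For each member the 2 genes with the most similar pattern over the 12 libraries were found as those with the smallest root mean square difference of centred log2 CPM among 7991 abundant genes (mean log2 CPM no lower than 3). Ebi3 was closest to Pim2, a survival kinase (0.15), and Pdcd1, which encodes the checkpoint receptor PD-1 (0.16). Il23a was closest to Sqor, a mitochondrial sulfide oxidising enzyme (0.26), and the AP-1 family factor Batf (0.29). For Il27, the acute-phase gene Saa3 came second (0.32). Il12b was farthest from its neighbours, the antisense RNA Ptgs2os2 (0.39) and the chemokine Ccl9 (0.43), and its few reads compress its pattern on this scale. Distances between members ran from 0.72 for Il12b and Ebi3 up to 2.73 for Il27 and Ebi3. The neighbours were picked as the closest of 7991 genes, so larger distances between members say little.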

How the data were processed

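Read counts per gene were deposited by the authors as whole numbers with no normalization, per the file headers. FPKM values were deposited by the authors beside them, per the file headers, and each gene's FPKM follows from its count, the library's total and 1 gene length. The submitters' processing notes name HISAT2 2.2.1 and the build GRCm39, fastp 0.23.4, edgeR 3.36.0, DESeq2 1.34.0 and featureCounts 2.0.6. The role of each, the annotation release, the strand setting and the handling of read pairs are not given in the sources used here. Total counts were 32548423 to 49961581 per library.

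The counts of all 12 libraries were fitted with edgeR 4.0.16 (limma 3.58.1, R 4.3.3), TMM scaling and filterByExpr, with group as the single term. The filter kept 14065 of 25192 genes and all 4 members, and Il12b passed through its LPS-treated libraries. P-values were adjusted over all genes tested (Benjamini-Hochberg). The SE was taken from the fitted change and its F statistic (change over root F). The procedure was tested on data simulated for LPS against control. Of the genes given a log2 change of 0.5, 13.4% were called, against 80.6% at 1 and 97.0% at 2. Of the unchanged genes, 0.0299% were called. Small changes would thus mostly be missed. Alternatives included DESeq2 1.42.0, limma on log2(FPKM + 1) and log2(FPKM + 0.1), other scalings and filters, a replicate block, and leaving out libraries. Members, lists and tests were chosen with earlier results of these data known. Named were all members, Il12a, up to 4 called genes with the smallest p per list in LPS against control, and the 2 most similar genes per member. Other genes named were chosen after their values were seen. Sequences came from RefSeq promoters (GRCm38.p6) and GENCODE M21 transcripts (GRCm38), and the choice to count ATTTA was made after the results were known. No protein sequence was used here. Some genes of the lists and of the similarity ranking are not reported here.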

Additional observations from a re-analysis of the deposited data

Results flagged for a closer look

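In 80 sets of 4 libraries (a gene or ratio in a group), 1 library stood far from the other 3 in 5 sets by Dixon's test at 95%, and chance gives about 1 in 20. Ebi3 was at 130 CPM in LPS replicate 1, against 93.5 to 96.9 CPM in the other LPS libraries. Il27ra was at 0.385 CPM in control replicate 3, against 0.138 to 0.151 CPM. Spi1 was at 220 CPM in ferulic acid plus LPS replicate 3, against 165 to 173 CPM. Nfil3 was at 12.3 CPM in control replicate 1, against 14.5 to 14.8 CPM. Il10 was at 0.0373 CPM (2 reads) in control replicate 2 and at 0 in the other control libraries. With those at 0, any read in 1 library would be flagged, so this flag, counted among the 5, says little.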

How the results depend on the processing

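Against control, each member kept its direction and call in every setting in which it was tested, with LPS alone and with ferulic acid before it. The filter of 10 CPM left Il12b untested, so 3 members were called there. Between the LPS-treated groups the count of genes called moved from 40 to 925 with DESeq2, 719 with no low-count filter, 71 with the 10 CPM filter, 2 with library size scaling, 1 with limma on log2(FPKM + 1) and 0 with limma on log2(FPKM + 0.1) (2668 at an unadjusted p under 0.05). It was 0 with edgeR on only these groups (2082 unadjusted), 0 with the replicate block (2450 unadjusted), and 0 to 2670 leaving out 1 library, with 2670 without ferulic acid plus LPS library 2, 1415 without library 3, and at most 5 without any other library (0, with 2781 and 2057 unadjusted, without LPS library 1 or 4). Leaving out pretreated libraries 2 and 3 gave 5664 and leaving out 1 and 4 gave 7, both settings chosen after seeing the data. Without libraries 2 and 3, Ebi3 became the 1 member called (-0.48), and Il12b (0.34) and Il27 (0.0662) changed sign. Leaving out 1 library, the log2 fold change ran from -0.49 to 0.22 for Il12b and from -0.15 to 0.0393 for Il27, and the Il12b to Il27 ratio from -0.43 to 0.27. The cause was not tested. With library size scaling, limma on log2(FPKM + 1) and limma on log2(FPKM + 0.1), in that order, the LPS value reversed for Jak2 (-0.29, -0.24, -0.29) and Spi1 (-0.37, -0.36, -0.36). Nfkb1 lost its call in these settings (0.18, 0.16, 0.17). Same-numbered libraries did not deviate together (r of -0.20 to 0.08 over 12 pairs, none above 0.1), so the numbers were not taken to pair them, and the block changed no call of a member. Il12b had at most 42 reads in a library, so its values are the least precise of the members.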
